A study of Arabidopsis thaliana with 15 samples.

Results

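The plastid genome of Arabidopsis thaliana encodes part of the machinery of photosynthesis, and these genes were followed here through 5 sorted cell populations of the root. Members were the probe sets annotated to plastid genes whose symbols begin with psa, psb, pet or ndh, or are rbcL, atpA, atpB, atpE, atpF, atpH or atpI. There were 44 such probe sets among the 22810 on the array. They comprised 5 for photosystem I, 15 for photosystem II, 6 for the cytochrome b6f complex, 11 for the NDH complex, 6 for the ATP synthase and 1 for Rubisco. Each stood for 1 gene except the ndhB probe set, which is annotated to both copies of that gene. Protoplasts (cells freed of their walls) of ecotype Columbia were sorted by fluorescence, and each population was measured on 3 Affymetrix arrays, 15 in all. All seedlings had grown for 5 days on 1X MS medium and then spent 3 h on a medium deficient in sulfur, so the treatment was common to every group. No array from full medium was analysed here. The line Pet111 marked the columella root cap, the gravity-sensing core of the root tip. The line pWER::GFP marked the epidermis with the lateral root cap, and pCOR::GFP the cortex. In pSCR::GFP the marked cells were endodermis and quiescent center. In pWOL::GFP they were the stele, the central cylinder with the vascular tissue. A population is therefore whatever cells carried the marker, and the epidermis and endodermis samples each held more than 1 cell type. Nothing in the labels says that the 3 samples of a population came from separate plantings, so the p-values measure only how far these samples scatter, and that scatter may be technical.

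Chloroplasts carry their own small genome in many copies per plastid. In light, photosystem II withdraws electrons from water, the cytochrome b6f complex passes them on, photosystem I re-energises them, and the ATP synthase uses the proton gradient that results. The NDH complex returns electrons to the chain around photosystem I, and Rubisco fixes carbon dioxide. Each of these assemblies is built from subunits encoded in the plastid and others encoded in the nucleus. Most plastid genes are transcribed together in polycistronic units that are then cut and processed. A bacterial-type polymerase encoded by the plastid transcribes most photosynthesis genes, while a nuclear-encoded phage-type polymerase serves many genes of the plastid's own expression machinery. Root plastids are mostly not green. Those of the columella are amyloplasts, filled with the starch grains that sense gravity.

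Values below are normalized signals on a linear scale, given for replicates 1, 2 and 3 in that order. Differences are log2 differences between the mean of 1 population and the mean of the other 4, with their standard errors and with limma's Benjamini-Hochberg adjusted p over all probe sets tested. A gene was called in a population when the adjusted p was below 0.05 and the difference reached 1 log2 unit in either direction. The signals were compared as log2(signal + 16), which understates changes of dim genes. Since the 5 differences of a gene cancel out, higher values in some populations force lower ones elsewhere. Of the 44 members, 42 passed the filter on low signal and psaA and ndhH did not. The psaA signal, from a core gene of photosystem I, ran from 1.79 to 48.3 over the 15 arrays, and that of ndhH, a peripheral NDH subunit, from 4.99 to 54.5. In 13 members the mean signal was under the array median of 60.7, and in 7 it was over 1000. Levels of different probe sets are not set against each other, because each binds its target differently. In bulk samples, fewer cells of a type and less RNA per cell cannot be told apart. The label protocol was a standard two-cycle amplification, which primes on poly(A) tails, and plastid transcripts mostly lack stable tails. How far tail length moved these signals was not tested.

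Most markers tested were called higher in the population named for them, but on 2 arrays some went against the label. The 2 columella markers, 2 epidermis markers and 3 endodermis markers were each called higher in their own population. The 4 cortex markers were called higher in the cortex and also in the endodermis, and 1 of the 2 stele markers was called higher in the stele. The lists held 5 columella, 6 epidermis, 5 cortex, 6 endodermis and 6 stele markers, of which the others were not tested. They were taken in part from earlier results of these data, so these calls are no independent check of the labels. Across all tested probe sets, epidermis replicate 2 was nearest to stele replicate 2 (r = 0.973) and stele replicate 1 was nearest to epidermis replicate 3 (r = 0.965). The stele marker PHV, a regulator of vascular patterning, had signals of 31.1, 537 and 25.3 in the epidermis and 7.003, 368 and 547 in the stele. The root cap markers PPDK and RCPG split these arrays the same way. PPDK was at 279, 3.58 and 229 in the epidermis, whose sample holds lateral root cap, and at 323, 7.61 and 13.6 in the stele, and RCPG was at 569.6, 12.2 and 766 and at 467, 8.10 and 100.3. On these genes epidermis replicate 2 resembled stele replicates 2 and 3, and stele replicate 1 resembled epidermis replicates 1 and 3. Both arrays are called by their labels throughout, and which cells they held was not tested. The root hair marker EXPA7 did not separate them so, with 249, 325 and 395 in the epidermis and 249.6, 363 and 39.0 in the stele. The counts of calls among the members are therefore also given without these 2 arrays. The 3′ to 5′ ratio of the actin control, a sign of RNA integrity, was 43.0 on endodermis replicate 2, against 6.56 and 7.15 on the other endodermis arrays and 9.40 to 28.3 elsewhere. On that array 8 of the 42 members lay over 1 log2 unit below the mean of the other endodermis arrays and 3 over 1 unit above it (psbM, petN and ndhC). The share of all probe sets lying so far off is not given here, so these counts have no background beside them. For the GAPDH control the same ratio was 2.28, 1.98 and 2.06 on the columella arrays, higher than on every other array. On endodermis replicate 2 it was 1.31, so the 2 controls set different arrays apart. The part of RNA integrity in the values of endodermis replicate 2 and in those of the columella was not tested. Stele replicate 2 stood highest, with 42 of 42 members above their own mean over the populations and a median of 0.77 log2 units above it. The epidermis array in doubt came next, with 37 of 42 above and a median of 0.48.

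By their median difference, plastid photosynthesis genes were lowest in the columella and highest in the stele. In the columella 34 of the 42 members had a negative difference and 10 were called lower, with none called higher. Over all probe sets, 11.7% were called lower and 11.7% higher in the columella. The members called lower were psaB and psaI, psbB, psbJ and psbZ, petA, and atpA, atpB, atpE and atpH. In the stele 36 members had a positive difference, 5 were called higher (psbB, petA, ndhD, ndhJ and atpH) and none lower, beside 6.5% and 5.89% of all probe sets. The median difference was -0.65 in the columella and 0.46 in the stele, where the medians of all probe sets were -0.03 and -0.00. The stele lead leaned on replicate 2, as the median levels of its arrays relative to the genes' means were 0.14, 0.77 and 0.13. Cortex replicate 1 (0.34), epidermis replicate 2 (0.48) and endodermis replicate 3 (0.17) lay above stele replicates 1 and 3. In the direct comparison of epidermis and stele no member was called, beside 0% of all probe sets.

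The other populations held few calls. In the epidermis atpH was called higher and psbM lower, beside 6.95% and 6.1% of all probe sets, and the median was 0.12. In the cortex psbA and psbN were called higher and ndhJ and atpH lower, beside 13.3% and 14.6%, with a median of 0.04. In the endodermis no member was called in either direction, beside 7.83% and 3.42%, with a median of -0.15. At an adjusted p under 0.05 the moderated F test found 19 of the 42 members unequal among the populations, which is 45.2%, while it found 66.1% of all probe sets unequal. The members' share of calls lay above the background for the lower calls of the columella (23.8%) and the higher calls of the stele (11.9%), and below it for both directions in the epidermis, cortex and endodermis.

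Without epidermis replicate 2 and stele replicate 1 the columella and stele counts kept their direction. The F test then found 28 members unequal, including all 19 of the first fit, beside 83.1% of all probe sets. In the columella 9 members were lower and none higher, beside 12.8% and 12.3%, and all 9 were among the earlier 10. The member lost was psbB, at -0.95 (adjusted p = 0.0025). In the stele 10 members were higher and none lower, beside 12.9% and 11%. These were the earlier 5 with psaI, ndhI, atpB, atpE and atpI. In the epidermis 2 were higher (atpA and atpH) and 4 lower (psbK, psbM, psbN and petB), beside 11.6% and 12.4%. The cortex kept 2 of each, beside 14.2% and 16.4%, with ndhI lower in place of ndhJ. In the endodermis psbM alone was called higher and none lower, beside 9.18% and 4.71%. The median difference of the members in the epidermis changed sign, from 0.12 to -0.21. Compared directly with the stele, 9 members were then called lower in the epidermis and none higher, beside 11.4% and 10.5%.

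**Figure D1:**
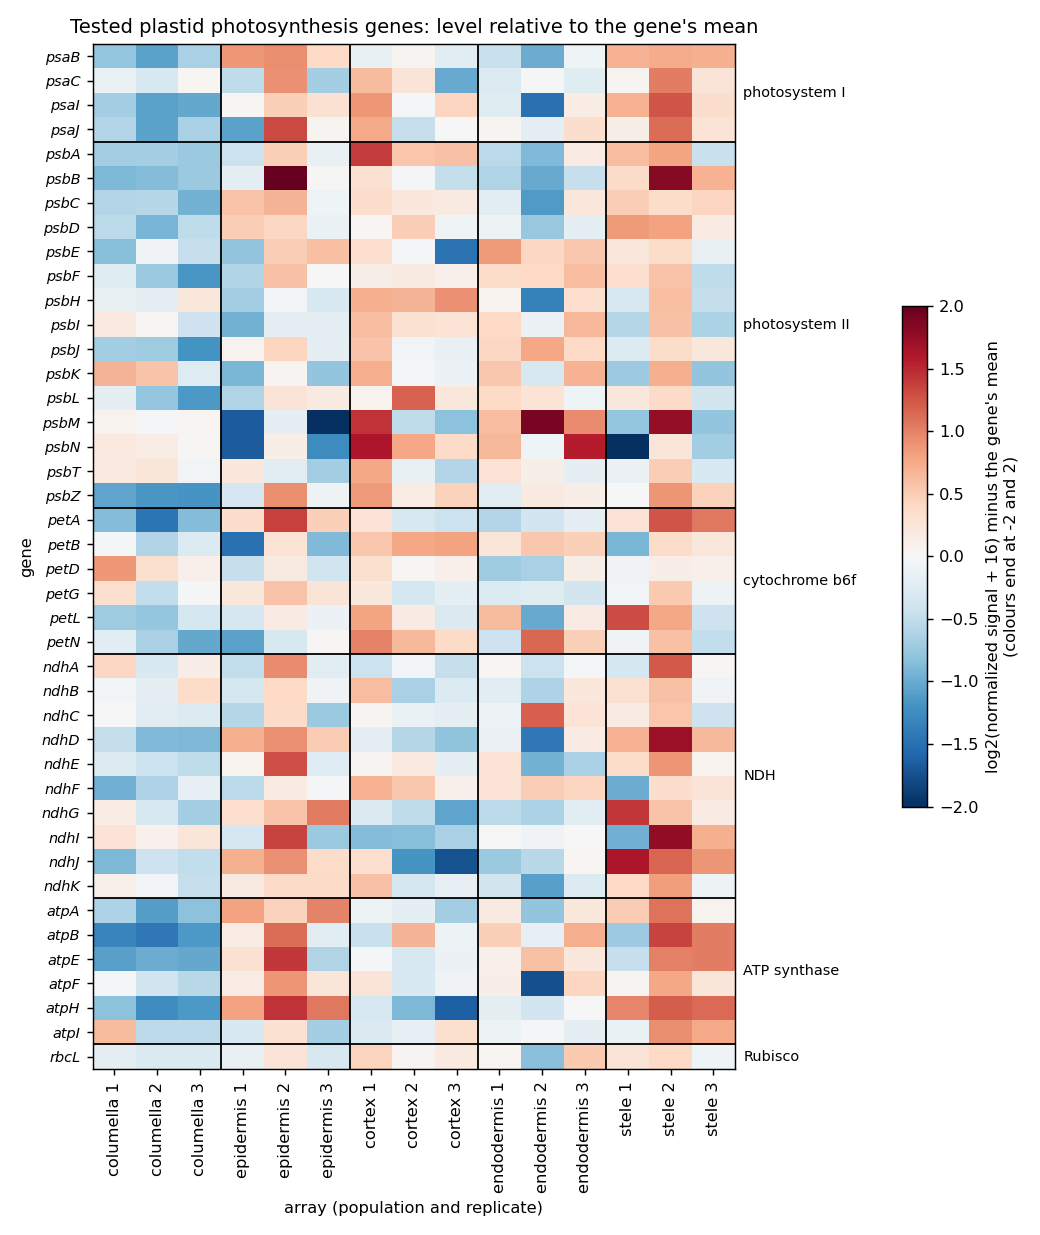
Level of each of the 42 tested genes (rows, by complex) on each of the 15 arrays (columns), as log2(normalized signal + 16) minus the gene's mean over the populations; colours end at -2 and 2. The columella columns are mostly blue, with medians of -0.22, -0.55 and -0.50, and stele replicate 2 is red in all 42 rows, with a median of 0.77.

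The ATP synthase had the most negative columella median of the complexes, at -1.18, with 4 of its 6 plastid genes called lower there. The enzyme joins a catalytic head to a membrane part that conducts protons. Its head genes atpA, atpB and atpE encode the alpha, beta and epsilon subunits, and the membrane genes atpF, atpH and atpI encode subunits b, c and a. The c subunits form the ring that turns as protons pass. The gene of that ring, atpH, had the smallest F-test p of all members, at 1.8e-05. Its signals were 145, 104 and 113 in the columella, 481, 761 and 576 in the epidermis, 212, 136 and 76.1 in the cortex, 236, 201 and 266 in the endodermis, and 544, 639 and 605 in the stele. All 6 epidermis and stele arrays lay above all 9 other arrays, while the columella and cortex overlapped. The difference was 1.38 ± 0.23 (SE, adjusted p = 0.00094) in the epidermis and 1.38 ± 0.23 (SE, adjusted p = 0.0011) in the stele. It was -1.34 ± 0.23 (SE, adjusted p = 0.00035) in the columella and -1.19 ± 0.23 (SE, adjusted p = 0.00074) in the cortex. No other member was called in 4 populations.

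The genes of the head subunits were all called lower in the columella. The signals of atpB were 736, 682 and 831 in the columella, 2058, 4039.5 and 1606 in the epidermis, 1357, 2973 and 1722 in the cortex, 2591, 1645 and 3079 in the endodermis, and 1116, 4749 and 3800.4 in the stele. All 3 columella arrays lay below all 12 others, and its columella difference of -1.62 ± 0.38 (SE, adjusted p = 0.0037) was the most negative among the members. The neighbouring gene atpE, which shares a transcript with atpB, had columella signals of 1557, 1664 and 1633 and ran from 2191 to 8898 elsewhere. It too had no overlap, with a difference of -1.30 ± 0.34 (SE, adjusted p = 0.0078). For atpA the signals were 506, 360.3 and 442 in the columella, 1389, 1090.1 and 1588 in the epidermis, 732, 687 and 483 in the cortex, 893, 451 and 913 in the endodermis, and 1127, 1696 and 833 in the stele. Its columella arrays overlapped with cortex replicate 3 and endodermis replicate 2, and the difference there was -1.06 ± 0.25 (SE, adjusted p = 0.0035).

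The membrane genes atpF and atpI did not pass the F test, while 4 of the 6 genes did. The signals of atpF were 119, 89.3 and 78.9 in the columella, 138, 241 and 148 in the epidermis, 149.8, 96.6 and 116 in the cortex, 137, 25.03 and 171 in the endodermis, and 128, 222 and 148 in the stele. Its populations overlapped, endodermis replicate 2 lay far below the other 2 endodermis arrays, and the F-test p was 0.31. The dim atpI had signals of 54.5, 15.5 and 15.7 in the columella, 20.6, 40.1 and 12.3 in the epidermis, 21.4, 24.6 and 40.7 in the cortex, 26.1, 28.1 and 24.0 in the endodermis, and 25.5, 70.5 and 60.4 in the stele. They too overlapped, and the F-test p was 0.36 with all arrays and 0.038 without the 2 arrays in doubt. Stele replicate 1 was low for atpB and atpE, and without it and epidermis replicate 2 the stele differences were 1.43 (adjusted p = 0.00023) and 1.28 (adjusted p = 7.6e-05), past the threshold. The columella call of atpA ended without columella replicate 2 at -0.93 (adjusted p = 0.031), and without stele replicate 2 by falling just short of a size of 1. The cortex call of atpH ended without cortex replicate 3 at -0.84 (adjusted p = 0.01), and the F tests of atpB and atpE ended without any 1 of the columella arrays (adjusted p of 0.074, 0.085 and 0.058 for atpB).

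Photosystem I genes followed with a columella median of -0.9997 and a stele median of 0.76, and 2 of the 4 tested genes passed the F test. This complex takes up electrons from plastocyanin and hands them to ferredoxin. Its core gene psaB had signals of 1486, 1212 and 1628 in the columella, 4698, 4883 and 3369 in the epidermis, 2322, 2661 and 2208 in the cortex, 1869, 1280.3 and 2423 in the endodermis, and 4145, 4289 and 4191 in the stele. The epidermis and stele arrays lay above all the others, the stele arrays lay close together, and the columella overlapped only with endodermis replicate 2. The difference was -1.04 ± 0.18 (SE, adjusted p = 0.00041) in the columella. In the epidermis and stele it reached 0.91 ± 0.18 (SE, adjusted p = 0.0026) and 0.89 ± 0.18 (SE, adjusted p = 0.0035), both short of a size of 1.

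The small subunit gene psaI had signals of 551, 413 and 427 in the columella, 900.4, 1250.1 and 1103 in the epidermis, 1631, 867 and 1199 in the cortex, 748, 308 and 989 in the endodermis, and 1451, 2149 and 1142 in the stele. The columella arrays lay below all others but endodermis replicate 2. Its columella difference was -1.16 ± 0.29 (SE, adjusted p = 0.0058), and its stele difference of 0.96 ± 0.29 became 1.03 (adjusted p = 0.016) without the 2 arrays in doubt. The other small subunit gene, psaJ, had signals of 53.3, 33.4 and 49.8 in the columella, 33.4, 242 and 90.9 in the epidermis, 159, 58.8 and 87.5 in the cortex, 91.1, 74.3 and 116 in the endodermis, and 96.2, 208 and 109 in the stele. Its populations overlapped, epidermis replicate 2 alone was over 240 among the epidermis arrays, and the F test did not pass (adjusted p = 0.21). The psaC gene, for the subunit that carries the terminal iron-sulfur clusters, ran from 19.4 to 128 with an F-test p of 0.66. The columella call of psaB ended without columella replicate 2, at -0.92 (adjusted p = 0.0063), and without endodermis replicate 3, at -0.99 (adjusted p = 0.00049), by size alone. The stele call of psaI was gained without cortex replicate 1, endodermis replicate 3 or stele replicate 3.

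The 15 photosystem II genes did not all have their highest mean in the same population. Their median was -0.82 in the columella, where 3 were called lower, and 7 passed the F test. The smallest F-test p belonged to psbZ, a small subunit gene. Its signals were 237, 219 and 218 in the columella, 404, 993 and 478 in the epidermis, 938, 569.8 and 708 in the cortex, 442, 582 and 564 in the endodermis, and 507, 956 and 709 in the stele. All 3 columella arrays lay below all 12 others, and the difference was -1.42 ± 0.25 (SE, adjusted p = 0.00043). The small subunit gene psbJ had signals of 114, 111 and 75.3 in the columella, 204, 263 and 168 in the epidermis, 292, 184 and 171 in the cortex, 262, 342 and 257 in the endodermis, and 156, 254 and 229 in the stele. Here too the columella stood below every other array, with a difference of -1.08 ± 0.21 (SE, adjusted p = 0.001), and the endodermis difference was 0.66 ± 0.21 (SE, adjusted p = 0.041). The D2 reaction centre gene psbD had signals of 21.4, 12.8 and 22.4 in the columella, 60.7, 56.7 and 33.5 in the epidermis, 39.7, 60.5 and 35.6 in the cortex, 34.9, 16.3 and 31.5 in the endodermis, and 81.8, 79.0 and 45.4 in the stele. Its columella overlapped only with endodermis replicate 2. The columella difference of -0.82 ± 0.23 (SE, adjusted p = 0.01) and the stele difference of 0.76 ± 0.23 (SE, adjusted p = 0.025) were under the threshold of size.

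The gene of the inner antenna protein CP47, psbB, was called lower in the columella at -1.04 ± 0.39 (SE, adjusted p = 0.046) and higher in the stele at 1.202 ± 0.39 (SE, adjusted p = 0.036). Its signals were 40.6, 42.0 and 47.5 in the columella, 77.7, 421 and 91.6 in the epidermis, 115, 86.9 and 59.8 in the cortex, 53.3, 36.8 and 60.4 in the endodermis, and 121, 356 and 155 in the stele. Epidermis replicate 2 and stele replicate 2 stood far above the rest. Both calls were fragile: the columella call ended in 10 of the 15 fits that left out 1 array, with values of -1.14 to -0.87 and adjusted p of up to 0.14. Only leaving out epidermis replicate 1 or 3, cortex replicate 3, endodermis replicate 2 or stele replicate 1 kept it. The stele call ended in 7 of the 15 fits, those without columella replicate 1 or 2, cortex replicate 2 or 3, endodermis replicate 1, or stele replicate 2 or 3. The lowest value was 0.78 (adjusted p = 0.25), without stele replicate 2. The gene of the other inner antenna protein, CP43 (psbC), was at -0.87 ± 0.24 (SE, adjusted p = 0.01) in the columella, short of a size of 1, and its F test ended without columella replicate 3.

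Of the 15 photosystem II genes, 10 had their highest mean signal in the cortex (psbA, psbH, psbI, psbL, psbN and psbZ) or the endodermis (psbE, psbF, psbJ and psbM), 3 in the stele (psbB, psbC and psbD) and 2 in the columella (psbK and psbT). Of those 10, psbA, psbJ, psbN and psbZ passed the F test, while the others, psbH among them, did not. Some of these rankings were near ties, as for psbC with 191 in the stele and 190 in the epidermis. The share of all probe sets highest in each population is not given here, so this count has no background beside it. The genes psbA, psbH, psbN and psbM are described after their values were seen. The gene of the D1 reaction centre protein, psbA, is among the most strongly expressed genes of green leaves. Here its signals were 52.5, 53.2 and 50.6 in the columella, 66.6, 138 and 84.9 in the epidermis, 278, 148 and 152 in the cortex, 60.8, 44.7 and 108 in the endodermis, and 154, 176 and 65.5 in the stele. The cortex arrays lay above all columella, epidermis and endodermis arrays and overlapped with the stele. Its cortex difference was 1.06 ± 0.29 (SE, adjusted p = 0.0084). The call ended without cortex replicate 1, at 0.78 (adjusted p = 0.079), and without stele replicate 3, at 0.97 (adjusted p = 0.0077). For psbH, a small subunit gene, all 3 cortex arrays (149, 146 and 175) lay above every other array, as in 10.4% of all probe sets, with a difference of 0.96 ± 0.31 (SE, adjusted p = 0.019), short of a size of 1.

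The gene psbN, whose product assists the assembly of the complex, lies on the strand opposite the psbB unit. Its signals were 68.1, 65.3 and 58.2 in the columella, 7.14, 63.6 and 14.8 in the epidermis, 208, 109.6 and 80.2 in the cortex, 99.9, 53.4 and 202 in the endodermis, and 2.09, 70.6 and 29.1 in the stele. The cortex lay above the columella, epidermis and stele and overlapped with the endodermis, and the lowest values were those of epidermis replicates 1 and 3 and stele replicate 1. The cortex difference was 1.16 ± 0.45 (SE, adjusted p = 0.049). This call ended in 11 of the 15 fits without 1 array, and held without epidermis replicate 2, endodermis replicate 3, or stele replicate 1 or 2. Its F test ended without epidermis replicate 1 or 3 or cortex replicate 1. Without the 2 arrays in doubt the difference was 1.14 (adjusted p = 0.0044) in the cortex and -1.84 (adjusted p = 0.00059) in the epidermis.

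The small subunit gene psbM varied widely within populations. Its signals were 1196, 1105 and 1174 in the columella, 347, 1008 and 275 in the epidermis, 3128, 792 and 636 in the cortex, 1759.5, 4289 and 2199.8 in the endodermis, and 662, 3904 and 652 in the stele. Single arrays of the cortex, endodermis and stele stood far above their replicates, and the epidermis overlapped with the stele and the cortex. The epidermis difference was -1.60 ± 0.55 (SE, adjusted p = 0.044), a call that ended in 8 of the 15 fits, those without any 1 columella array, epidermis replicate 1 or 3, cortex replicate 1, or endodermis replicate 2 or 3. Its F test did not pass with all arrays (adjusted p = 0.074) and passed without the 2 arrays in doubt (adjusted p = 0.0049). It was then called higher in the endodermis, at 1.48 (adjusted p = 0.017), where its highest value was that of endodermis replicate 2, the array of high actin ratio. Of the remaining photosystem II genes, psbE and psbF, for cytochrome b559, differed by -0.58 ± 0.35 and -0.89 ± 0.26 in the columella and did not pass the F test. The F test did not pass for psbI, psbK, psbL and psbT either, with adjusted p from 0.075 to 0.87. The columella call of psbJ ended without columella replicate 3, at -0.91 (adjusted p = 0.014).

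**Figure D2:**
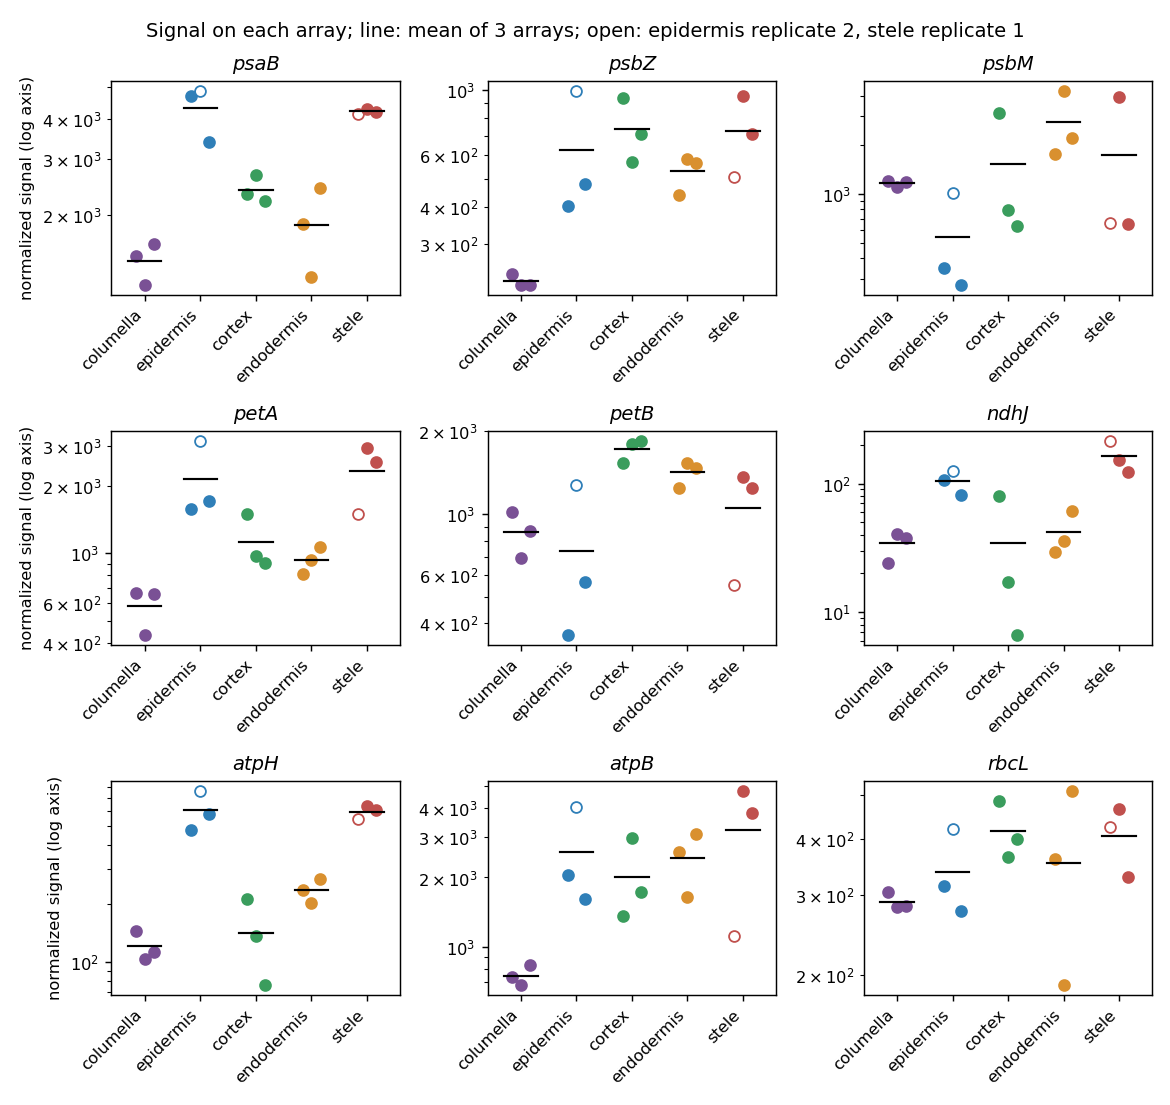
Normalized signal (log axis) of 9 genes on each array, by population, with a line at the mean of 3 arrays; open symbols are epidermis replicate 2 and stele replicate 1. In the panels of psbZ, petA and atpB the columella points lie below all others, and in those of psaB, ndhJ and atpH the epidermis and stele points lie above all others.

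Of the 6 cytochrome b6f genes only petA was called with all arrays, lower in the columella and higher in the stele. Cytochrome f, encoded by petA, carries electrons to plastocyanin. Its signals were 664, 433 and 660.4 in the columella, 1572, 3175 and 1713 in the epidermis, 1504, 974 and 902 in the cortex, 812, 937 and 1067 in the endodermis, and 1502, 2941 and 2554 in the stele. The columella lay below every other array, and the highest values were those of epidermis replicate 2 and stele replicates 2 and 3. The difference was -1.33 ± 0.25 (SE, adjusted p = 0.00075) in the columella and 1.08 ± 0.25 (SE, adjusted p = 0.0071) in the stele. It was 0.92 ± 0.25 (SE, adjusted p = 0.015) in the epidermis, just short of the threshold of size. The stele call ended without stele replicate 2, at 0.89 (adjusted p = 0.06), and without stele replicate 3, where the size fell just short of 1.

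The cytochrome b6 gene petB ran otherwise, with signals of 1022, 690.0 and 869 in the columella, 363, 1275 and 565 in the epidermis, 1538, 1805 and 1848 in the cortex, 1248, 1538 and 1467 in the endodermis, and 550.4, 1362 and 1239.9 in the stele. The cortex arrays were the highest except that endodermis replicate 2 matched cortex replicate 1, and epidermis replicates 1 and 3 and stele replicate 1 were lowest. No population was called with all arrays, the cortex difference was 0.88 ± 0.31 (SE, adjusted p = 0.031) and the epidermis difference -0.88 ± 0.31 (SE, adjusted p = 0.047). Without the 2 arrays in doubt the epidermis difference was -1.47 (adjusted p = 1.3e-05), a call, and the F-test p moved from 0.033 to 7.1e-06. The small subunit gene petN had signals of 63.7, 42.8 and 29.5 in the columella, 27.6, 58.1 and 77.5 in the epidermis, 167, 128 and 104 in the cortex, 53.2, 187 and 112 in the endodermis, and 71.4, 122 and 49.2 in the stele. The cortex overlapped only with the endodermis and stele. Its F-test p was 0.046. This result ended in 7 of the 15 fits without 1 array (columella replicate 2 or 3, epidermis replicate 1, any cortex array or endodermis replicate 3), with adjusted p of up to 0.11. That of petB ended in 9 (columella replicate 2 or 3, epidermis replicate 1 or 3, any cortex array, or endodermis replicate 2 or 3), with adjusted p of up to 0.08. The subunit IV gene petD and the small subunit genes petG and petL did not pass the F test, with adjusted p of 0.11, 0.26 and 0.21. Of the 6 genes, petD alone had a positive columella difference, at 0.54 ± 0.23.

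The NDH genes had no call in the columella, where their median was -0.28, and 2 calls in the stele, where it was 0.51. Of the 10 tested, 3 passed the F test, and all 3 were high in the epidermis and stele. The membrane subunit gene ndhD had signals of 354, 263 and 259 in the columella, 824, 955 and 711 in the epidermis, 433, 331 and 279 in the cortex, 456, 174 and 558 in the endodermis, and 815, 1656 and 789 in the stele. All 6 epidermis and stele arrays lay above the 9 others. The difference was 1.27 ± 0.30 (SE, adjusted p = 0.0073) in the stele and 0.89 ± 0.30 (SE, adjusted p = 0.038) in the epidermis, the latter short of the threshold of size. The peripheral subunit gene ndhJ had signals of 24.3, 40.4 and 37.9 in the columella, 107, 126 and 81.7 in the epidermis, 79.3, 17.2 and 6.64 in the cortex, 29.2, 35.5 and 61.4 in the endodermis, and 215, 153 and 123 in the stele. The epidermis and stele again lay above the rest, by a narrow gap to cortex replicate 1. The stele difference was 1.52 ± 0.33 (SE, adjusted p = 0.005), the largest of any member in the stele, and the cortex difference was -1.08 ± 0.33 (SE, adjusted p = 0.017).

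The membrane subunit gene ndhG was dimmer, with signals of 49.3, 31.0 and 20.6 in the columella, 58.5, 71.4 and 105 in the epidermis, 32.0, 25.5 and 12.4 in the cortex, 24.5, 21.9 and 34.4 in the endodermis, and 141, 71.1 and 49.5 in the stele. The 6 epidermis and stele arrays were the highest, with stele replicate 3 barely above columella replicate 1. Its differences of 0.81 ± 0.27 in the epidermis and 0.89 ± 0.27 in the stele were under the threshold of size. The peripheral subunit gene ndhI, named here after its values were seen, had signals of 755, 656 and 737 in the columella, 486, 1608 and 364 in the epidermis, 334, 335 and 390.0 in the cortex, 622, 591 and 625 in the endodermis, and 311, 2143 and 1027 in the stele. Stele replicate 1 was at the level of the cortex and epidermis replicate 2 at the level of the stele. Its F-test p was 0.3 with all arrays and 1.9e-05 without those 2, when it was called higher in the stele at 1.53 (adjusted p = 2.6e-05) and lower in the cortex at -1.01 (adjusted p = 0.00016). The F test did not pass for ndhA, ndhB, ndhC, ndhE, ndhF and ndhK, with adjusted p from 0.084 to 0.73. The stele call of ndhD ended without stele replicate 2, at 0.93 (adjusted p = 0.07). The cortex call of ndhJ ended without cortex replicate 2, at -0.92 (adjusted p = 0.094), without cortex replicate 3, at -0.64 (adjusted p = 0.17), and, by size, without the 2 arrays in doubt.

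The large subunit gene of Rubisco, rbcL, did not pass the F test (adjusted p = 0.48). Its signals were 305, 282 and 283 in the columella, 314, 419.6 and 277 in the epidermis, 485, 364 and 400.2 in the cortex, 361, 189 and 510.4 in the endodermis, and 424, 465 and 329 in the stele. The populations overlapped, and the widest spread was within the endodermis, where replicate 2 was lowest and replicate 3 highest of all arrays. The differences ran from -0.32 ± 0.23 in the columella to 0.29 ± 0.23 in the cortex.

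Set side by side, the complexes differed in the size of their columella and stele differences. The columella medians were -1.18 for the ATP synthase, -0.9997 for photosystem I, -0.82 for photosystem II, -0.57 for cytochrome b6f and -0.28 for NDH, and rbcL was at -0.32. The stele medians were 0.76 for photosystem I, 0.67 for the ATP synthase, 0.51 for NDH, 0.14 for photosystem II and 0.11 for cytochrome b6f. With all arrays, each complex with more than 1 gene tested was thus below the median of all probe sets in the columella and above it in the stele. Without stele replicate 2, however, the stele medians were -0.0282 for photosystem II, -0.0108 for cytochrome b6f and 0.21 for NDH, so that the first 2 changed sign. Within the columella the 3 arrays of the ATP synthase had median levels of -0.72, -1.05 and -0.92 relative to the genes' means, while those of NDH had -0.02, -0.31 and -0.36. Cortex medians were positive for photosystem II (0.24) and cytochrome b6f (0.23) and negative for NDH (-0.26) and the ATP synthase (-0.12). In the endodermis the median of photosystem II was 0.24 as in the cortex, and those of photosystem I (-0.43), NDH (-0.39), cytochrome b6f (-0.23) and the ATP synthase (-0.15) were negative. The F test passed for 4 of 6 ATP synthase genes, 2 of 4 of photosystem I, 3 of 6 of cytochrome b6f, 7 of 15 of photosystem II and 3 of 10 of NDH. Without the 2 arrays in doubt the stele medians were 1.16 for the ATP synthase, 0.96 for photosystem I, 0.62 for NDH, 0.31 for cytochrome b6f and 0.19 for photosystem II, so their order changed. The complexes also differed in brightness. Mean signals under the array median of 60.7 were those of ndhB, ndhF, ndhG and ndhK among the tested NDH genes. In the other complexes they were those of atpI, psaC, psbD, psbE, psbT, petD and petG. Differences of such dim genes are understated, which limits this comparison. These are counts over 4 to 15 genes that share transcripts, and differences between the complexes were not tested.

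**Figure D3:**
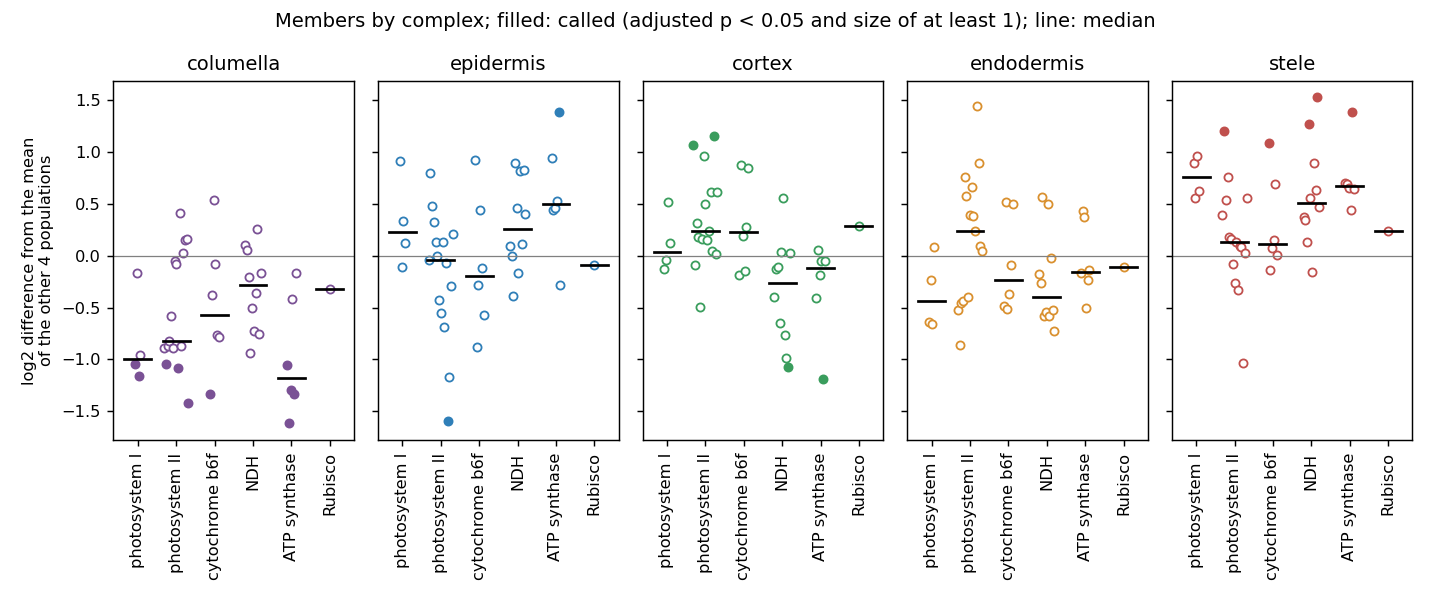
Log2 difference of each tested gene from the mean of the other 4 populations, by complex, with 1 panel per population; filled points are called and lines are medians. In the columella the lines run from -1.18 for the ATP synthase to -0.28 for NDH, and in the stele from 0.11 for cytochrome b6f to 0.76 for photosystem I.

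Genes could be sorted by how cleanly the arrays separated. In 5 members (psbJ, psbZ, petA, atpB and atpE) every columella array lay below every other array, as in 6.74% of all probe sets. In another 5 (psaB, ndhD, ndhG, ndhJ and atpH) every epidermis and stele array lay above the 9 other arrays, as in 6.13% of all probe sets. This pairing of the epidermis with the stele was chosen after the values were seen, and the 6 arrays are the same ones whichever of these 2 populations an array in doubt belongs to. The 5 genes came from 3 complexes, and none of the 42 members had those 6 arrays below the rest. In no member did all the epidermis arrays, all the stele arrays or all the endodermis arrays lie above, or below, all others. Among all probe sets this was also rare: 0.682% lay above and 0.633% below in the epidermis, 0.378% and 0.322% in the stele, and 4.29% and 1.13% in the endodermis. For the cortex only psbH lay above all others and no member below, beside 10.4% of all probe sets in each direction. No member had all columella arrays above the others, beside 11.4%. The median standard deviation within a population was 0.24 log2 units in the columella, 0.34 in the cortex, 0.40 in the endodermis, 0.46 in the epidermis and 0.51 in the stele, so the columella was measured with the least spread.

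Genes that share a transcription unit in the plastid did not all move together. In the unit of atpI, atpH, atpF and atpA the columella differences were -0.17 ± 0.29, -1.34 ± 0.23, -0.42 ± 0.35 and -1.06 ± 0.25, so that the call fell on the second and last genes. In the unit of psbB, psbT, psbH, petB and petD they were -1.04, 0.16, -0.05, -0.38 and 0.54. The first gene of that unit was also the one called in the stele, while petB and psbH had their highest mean in the cortex. Other units were more even. The columella differences of psbE, psbF, psbL and psbJ were -0.58, -0.89, -0.87 and -1.08, and those of psbD, psbC and psbZ were -0.82, -0.87 and -1.42. The pair atpB and atpE stood at -1.62 and -1.30. In the unit of ndhC, ndhK and ndhJ, all passed the filter but only ndhJ passed the F test, and their stele differences were 0.13 ± 0.28, 0.47 ± 0.25 and 1.52 ± 0.33. Of these genes, atpI, psbT, petD, psbE, psbD and ndhK had mean signals under the array median of 60.7, where differences are understated. Each probe set reads its own stretch of a transcript, and differences between genes of 1 unit were not tested.

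**Figure D4:**
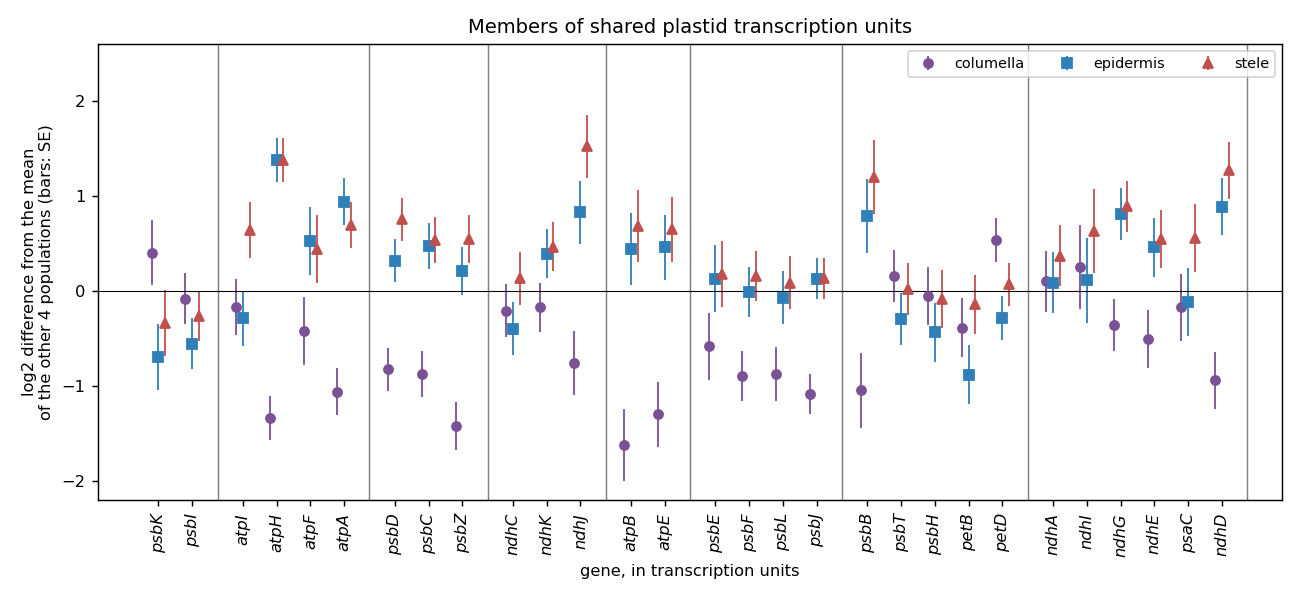
Log2 difference (bars, SE) of the columella, epidermis and stele for the genes of 8 plastid transcription units, in their order along the unit. The columella points of atpB and atpE lie together at -1.62 and -1.30, while those of the unit from psbB to petD spread from -1.04 to 0.54.

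Other genes of the plastid genome were likewise lowest in the columella and highest in the stele, with larger medians. These 33 probe sets, all tested, include ribosomal proteins, polymerase subunits, and the accD, clpP, matK and ycf genes. In the columella 16 of the 33 (48.5%) were called lower, beside 11.7% of all probe sets. The median was -1.14 against -0.65 for the photosynthesis genes. In the stele 18 (54.5%) were called higher, beside 6.5% of all probe sets, with a median of 1.22 against 0.46. Without the 2 arrays in doubt, 32 could be tested, of which 20 were lower in the columella and 26 higher in the stele. The shares of all probe sets were then 12.8% and 12.9%. With all arrays the F test passed in 24 (72.7%), beside 66.1% of all probe sets. In 15 every epidermis and stele array lay above the 9 others, as in 6.13% of all probe sets. The smallest F-test p were those of rpoC2 (1.6e-05), matK (4.3e-05), rps19 (6e-05) and rpoC1 (0.00012). These genes share plastids, RNA samples and in part transcripts with the photosynthesis genes, and the difference between both groups was not tested. The summed signal of the 44 members was 10736 to 12679.7 on the columella arrays and 17149.7 to 39371 on all the others. The brightest members weigh most in this sum. The means of atpE, psaB and atpB were 3827, 2844 and 2199, and each was called lower in the columella. Of the 42 tested members, 8 had a positive columella difference.

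In the cortex and stele, nuclear genes for parts of the same complexes behaved otherwise. Of 66 such genes listed, 9 had a probe set named here. In the cortex 8 of these 9 were called higher, beside 13.3% of all probe sets, with a median of 2.27. Without the 2 arrays in doubt 8 were also called higher, beside 14.2%. Their summed signal was 1923 to 2028 on the cortex arrays and 254 to 409 on the 12 others. The gamma subunit gene of the ATP synthase, ATPC1, averaged 598 ± 4.77 (SD, n = 3) in the cortex and 25.6 to 59.7 elsewhere, a difference of 3.56 ± 0.30 (SE, adjusted p = 5.1e-07). The activase of Rubisco, RCA, was at 2.98 ± 0.23 (SE, adjusted p = 2.3e-07), and the photosystem genes PSAE-1, PSAN, PSBY and PSBW and the antenna genes LHCB4.1 and LHCB4.2 were at 1.36 to 2.46. The second gamma subunit gene, ATPC2, was at -0.18 ± 0.18 (SE, adjusted p = 0.44). The columella differences of the 9 ran as those of the plastid genes did, with 6 negative and a median of -0.52 against -0.65. There ATPC1 alone was called lower, at -1.06 ± 0.30 (SE, adjusted p = 0.011), beside 11.7% of all probe sets. Without the 2 arrays in doubt none of the 9 was called there, beside 12.8% lower. In the stele, where plastid genes had their highest medians, 3 of the 9 were called lower and none higher, beside 5.89% and 6.5%. Within the ATP synthase, ATPC1 was thus called higher in the cortex, where its plastid partner atpH was called lower and atpB stood at 0.05 ± 0.38. These nuclear genes also serve as the markers of green cells, and whether the cortex sample held more such cells was not tested.

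**Figure D5:**
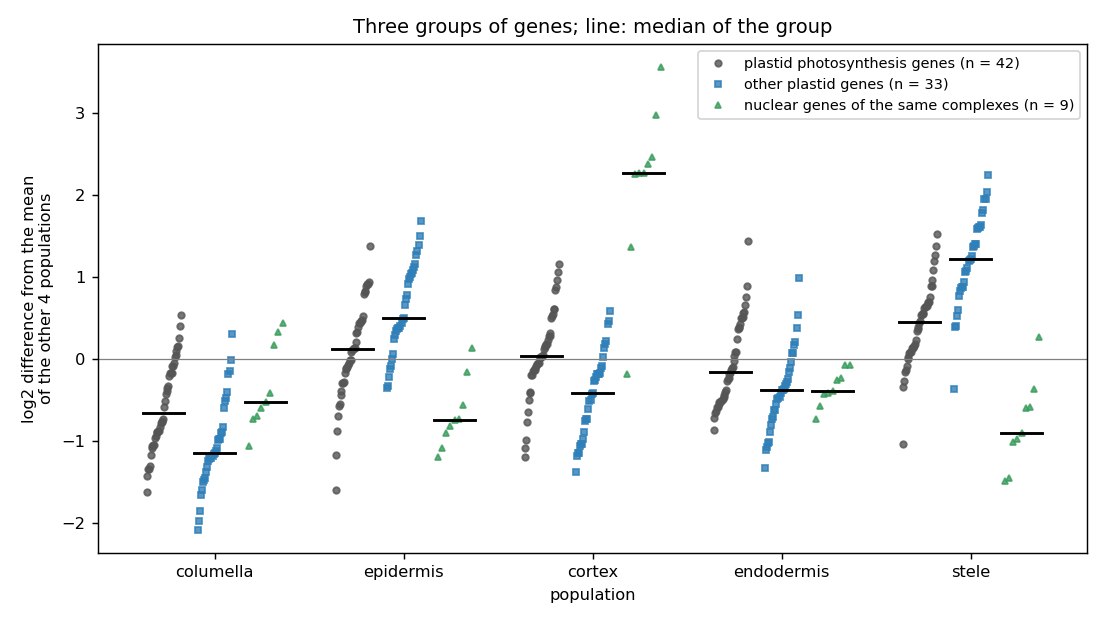
Log2 difference from the mean of the other 4 populations for 42 plastid photosynthesis genes, 33 other plastid genes and 9 nuclear genes of the photosynthetic complexes, with lines at the medians. In the cortex the medians are 0.04, -0.41 and 2.27, and in the stele 0.46, 1.22 and -0.90.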

How the data were processed

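The deposited values were signal intensity per probe set of the 15 arrays, on a linear scale. Per the submitters' processing notes the authors used MAS5, and neither its version nor its target value is given in the sources used here. Detection calls were not used here. Array medians of the deposited intensity differed by up to 1.76 times, over a limit of 1.5, so arrays were quantile normalized. Values were then taken as log2(signal + 16), 64 control probe sets were dropped, and a probe set was tested if it lay above its array's 40th percentile on 3 or more arrays. This kept 16126 probe sets, or 15911 without 2 arrays. With R 4.3.3 and limma 3.58.1, a model with 5 population means was fitted over the 15 arrays (lmFit, then eBayes with trend), and p-values were adjusted by Benjamini-Hochberg over all tested probe sets. Figures were drawn with Python 3.11.15 and matplotlib 3.10.9. The fit was also tested on simulated data, but the outcome is not given here and no result rests on it. It was repeated on the deposited scaling, with other pseudocounts (1 and 64) and filters (none, or the 60th percentile), without the variance trend, with array weights, with a replicate block, with organelle probe sets kept out of the normalization, and with arrays left out. The number of arrays limits the precision.

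Of the 22810 probe sets, 13513 had 1 gene symbol in the platform annotation, 503 several and 8794 are unnamed here. The array's genome build was not given, so no coordinates are printed, and no sequences were used. Some plastid genes have copies inserted in the nuclear or mitochondrial genome, and cross-matches to these were not tested. The members, gene lists and settings were chosen with earlier results of these data known. Genes were named by a rule: in each complex the up to 3 members of smallest F-test p, and any that did not pass the F test where most of its complex did. Of the other lists, up to 4 members of smallest p past the F test were named. Further genes were picked with their values in view. The list of nuclear genes holds those for subunits of the complexes, antennas and Rubisco. A list of 32 plastid transcription genes had no probe set named here.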

Additional observations from a re-analysis of the deposited data

How the results depend on the processing

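Among 1827 repeats of 74 single-gene results, 1646 kept direction and side of the threshold, 104 lost a call, 77 gained one and none turned direction. Many of the 74 were F tests, which have no direction to turn. The others were differences called with all arrays or without those in doubt, so a turn was unlikely. Leaving out 1 array at a time gave 14 to 22 members passing the F test (19 with all). It gave 7 to 12 members called lower in the columella (10 with all) and none called higher there. The numbers of members called ran from 1 to 3 for higher in the epidermis (1 with all), 0 to 3 for lower in the epidermis (1 with all), 0 to 4 for higher in the cortex (2 with all), 0 to 3 for lower in the cortex (2 with all), 0 to 1 for higher in the endodermis (0 with all), 2 to 8 for higher in the stele (5 with all) and 0 to 1 for lower in the stele (0 with all). Medians ran from -0.88 to -0.64 for photosystem II in the columella (-0.82 with all), -0.22 to -0.0284 for ATP synthase in the cortex (-0.12 with all) and -0.21 to 0.17 for ATP synthase in the endodermis (-0.15 with all). In the epidermis they changed sign for photosystem I (-0.13 to 0.58), photosystem II (-0.29 to 0.15) and NDH (-0.10 to 0.46). In the cortex that of photosystem I did so (-0.15 to 0.31). The stele count was 8 without stele replicate 1 and 2 without stele replicate 2; the epidermis lower count was 3 without epidermis replicate 2 and the cortex higher count 4; the cortex counts were 0 higher without cortex replicate 1 or stele replicate 3 and 0 lower without cortex replicate 3. Array weights gave 31 for members passing the F test, 2 for higher in the epidermis, 3 for lower in the epidermis, 1 for higher in the cortex, 2 for higher in the endodermis, 8 for higher in the stele, 0.0596 for cytochrome b6f in the endodermis, -0.059 for NDH in the endodermis, -0.20 for ATP synthase in the cortex and 0.13 for ATP synthase in the endodermis. A pseudocount of 1 gave 2 for higher in the epidermis. Leaving out both arrays in doubt gave 2 for higher in the epidermis, 4 for lower in the epidermis, 1 for higher in the endodermis and 10 for higher in the stele. No filter gave 0 for lower in the epidermis and 1 for higher in the cortex. The deposited scaling gave 0 for higher in the cortex and -0.26 for ATP synthase in the cortex. A pseudocount of 64 gave 0 for higher in the cortex, 0 for lower in the cortex, 3 for higher in the stele and -0.42 for photosystem II in the columella. A filter at the 60th percentile gave 1 for higher in the cortex, 0.56 for cytochrome b6f in the cortex, 0.21 for cytochrome b6f in the endodermis and -0.65 for NDH in the cortex. The replicate block gave 1 for higher in the cortex. With the replicate block the F test found 20 members unequal, and 10 were lower in the columella and 5 higher in the stele. Same-numbered arrays showed no general pairing. Of 30 such pairs of deviations from the group means, 6 correlated over 0.1, and the 30 ran from -0.52 to 0.72. Of the 15 arrays, 5 correlated best with their own number. Both arrays in doubt weigh on the deviations in the epidermis and stele. Whether arrays of the same number shared a batch was not tested. The deposited scaling moved the median of all probe sets in the cortex from -0.07 to -0.22 and that of the members from 0.04 to -0.05. The cause of these changes was not tested. Signals near the filter carry little information, and 3 arrays a group limit the precision of every value.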

Other observations

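Among nuclear genes with a role in making plastids green, 18 were listed, 3 had a probe set named here and 2 could be tested. Both were called higher in the cortex, where 13.3% of all probe sets were. PORB, a protochlorophyllide reductase of chlorophyll synthesis, was at 2.33 ± 0.23 (SE, adjusted p = 2.1e-06) by limma, and CHLM, a methyltransferase of the same pathway, at 1.36 ± 0.19 (SE, adjusted p = 6.1e-05). CHLM was also called lower in the columella, at -1.33 ± 0.19 (SE, adjusted p = 9e-05).

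Of 34 genes listed for the processing of plastid RNA, 9 had a probe set named here and 4 could be tested. OTP81, an RNA editing factor of the pentatricopeptide repeat family, was called higher in the epidermis at 1.47 ± 0.33 (SE, adjusted p = 0.0048) by limma and lower in the cortex at -1.22 ± 0.33 (SE, adjusted p = 0.007). LPA66, another such editing factor, passed the F test (adjusted p = 0.04) without a call in any population. CRR22 and OTP84 did not pass it.

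Of the 24 mitochondrial probe sets, 20 were tested and 9 (45%) passed the F test, beside 66.1% of all probe sets. In the stele 5 (25%) were called higher and none lower, beside 6.5% and 5.89% of all probe sets, with a median of 0.68. In the endodermis 5 (25%) were called lower and none higher, beside 3.42% and 7.83%, with a median of -0.50. In the epidermis 3 (15%) were called higher and none lower, beside 6.95% and 6.1%, with a median of -0.04. In the columella 1 was called higher and 1 lower (5% each, beside 11.7% each), with a median of -0.34. In the cortex 1 (5%) was called higher and none lower, beside 13.3% and 14.6%. Without epidermis replicate 2 and stele replicate 1 the F test passed in 17 (85%), near the 83.1% of all probe sets. Then 8 were higher and none lower in the stele, 1 higher and 5 lower in the epidermis, 5 lower in the endodermis, 2 higher and 1 lower in the columella, and 1 higher in the cortex. For higher and lower calls, the shares of all probe sets were then 12.9% and 11% in the stele and 11.6% and 12.4% in the epidermis. They were 9.18% and 4.71% in the endodermis, 12.3% and 12.8% in the columella, and 14.2% and 16.4% in the cortex. The median of the epidermis was then -0.45.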
